A study of Mus musculus with 14 samples.

Results

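Hepcidin and the genes that take up, carry, store and export iron were followed in liver RNA of Apoe-deficient mice that received erythrodiol in the diet. The 10 genes were found in the deposited gene table by their symbols (Hamp, Hamp2, Bmp6, Tfr2, Tfrc, Trf, Slc11a2, Fth1, Ftl1 and Slc40a1), out of 17552 genes listed, and all 10 had at least 100 counts in the groups together. The mice were male, of the C57BL/6 strain by the labels (C57BL/6J in the study's methods), and Apoe-deficient in both groups, and the labels give an age of 8 weeks. The control group (n = 7 libraries) ate a Western diet, and the erythrodiol group (n = 7 libraries) ate the same diet with erythrodiol, a triterpene alcohol of the olive, at a dose of 10 mg/kg. By the study's methods this dose is per mass of mouse, not per mass of diet. The labels give 8 weeks of feeding, while the methods of the study give a longer time. The labelled age equals the labelled feeding time, so it is unlikely to be the age at which the livers were taken. Each library was made from polyA RNA pooled from a few mice, so that the deficiency and the fatty diet are shared by every sample and no library stands for a single animal.

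Iron enters hepatocytes bound to transferrin through transferrin receptors and by other carriers, is stored in ferritin, and leaves cells through ferroportin, the only known iron exporter of mammals. The liver sets the iron level of the body through hepcidin, a secreted peptide that blocks and removes ferroportin. Hepcidin transcription is driven by bone morphogenetic proteins from liver endothelial cells, acting on SMAD factors, and by interleukin 6 acting on STAT3, while ferritin and receptor mRNAs are also controlled after transcription through iron-responsive elements, which are short hairpins bound by iron regulatory proteins.

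The gene values were expected counts that the authors summed over the 7 libraries of a group, so each gene had 1 value per group and no replicates, and no test between the groups could be made. The sums over all genes were 122889031.74 for the control and 124686046.65 for the erythrodiol libraries. Libraries held between 34856340 and 55244294 clean reads in the control group (median 48008204) and between 47669656 and 48058606 in the erythrodiol group (median 47982680). Between 64.33% and 81.43% of control reads (median 75.3%) and between 72.96% and 76.13% of erythrodiol reads (median 74.65%) mapped to genes, and control replicate 3 was the lowest of its group. The values below contain it and cannot be given without it. Ratios are erythrodiol over control after division by these sums, and the 95% intervals cover counting error only, not the spread between mice or libraries. Apoe, the disrupted gene, had 9403 counts in the control group and 8293 with erythrodiol, and a sum over the whole gene does not check the deletion. The tissue label was checked with 10 hepatocyte markers (Alb, Ttr, Apoa1, Apoa2, Apob, Serpina1a, Tat, Cps1, Cyp2e1 and Hnf4a), which were all present, Alb with 9898794 and 9665610 counts, respectively.

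The mRNAs of Fth1, Ftl1, Slc40a1 and Tfrc carry in their untranslated regions the hairpin by which iron regulatory proteins hold back translation or protect the message, and Slc11a2 has a form that carries it. These elements are shown because they tie storage, uptake and export genes into a single control. The capitals mark the loop, searched as CAGTGN on the sense strand of protein-coding GENCODE M21 transcripts on GRCm38. The loop had to be flanked by 5 bases on each side that pair with each other, G-T pairs allowed. A C was required ahead of the upstream 5 bases, and 1 further unpaired base was allowed. Matches in coding sequence were left out. In the 5′ UTR, the element lay at chr19:9982733-9982759 (plus strand) in Fth1, chr7:45459780-45459806 (minus strand) in Ftl1 and chr1:45925466-45925492 (minus strand) in Slc40a1. In the 3′ UTR, Tfrc had 4 matches within chr16:32631220-32631737 (plus strand), and Slc11a2 had 1 at chr15:100395153-100395180 (minus strand).
Fth1: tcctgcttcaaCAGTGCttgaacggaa
Ftl1: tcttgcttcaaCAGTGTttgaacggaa
Slc40a1: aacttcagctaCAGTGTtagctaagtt
Tfrc, at 32631220: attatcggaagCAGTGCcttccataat
Tfrc, at 32631599: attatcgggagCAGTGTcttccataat
Tfrc, at 32631664: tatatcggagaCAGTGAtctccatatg
Tfrc, at 32631711: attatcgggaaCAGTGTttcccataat
Slc11a2: gccatcagagcCAGTGTgtttctatggt
Of 21854 protein-coding genes searched in the same way, 0.371% had a match in a 5′ UTR and 1.63% in a 3′ UTR. Matches were found in 5 of the 10 genes, and in no untranslated region of Hamp, Hamp2, Bmp6, Tfr2 or Trf.

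The promoters of the hepcidin genes are shown because Hamp and Hamp2 lie near each other on chromosome 7 and differ in level by an order of magnitude. Hamp spans chr7:30942368-30944029 and Hamp2 chr7:30922372-30924181, both on the minus strand of GRCm38. The 150 bases before each start (chr7:30944030-30944179 and chr7:30924182-30924331, RefSeq, GRCm38.p6) follow. Capitals mark a STAT-type site in both, the SMAD-type element GGCGCC in Hamp and the 6 bases in its place in Hamp2.
Hamp: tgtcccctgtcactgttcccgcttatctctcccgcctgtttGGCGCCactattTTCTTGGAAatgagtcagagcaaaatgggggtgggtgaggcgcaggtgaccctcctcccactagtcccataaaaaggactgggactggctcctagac
Hamp2: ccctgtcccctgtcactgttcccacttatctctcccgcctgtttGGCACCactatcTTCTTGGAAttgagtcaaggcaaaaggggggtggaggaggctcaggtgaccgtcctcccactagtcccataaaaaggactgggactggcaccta
The windows shared 137 of 150 bases in order (91.3%). In Hamp the GGCGCC lay 109 to 104 bases before the start and TTCTTGGAA 97 to 89 bases before it. In Hamp2 the same STAT-type letters lay 94 to 86 bases before the start, and the 6 bases in place of GGCGCC were GGCACC, a G4A substitution counted from the first of the 6 bases. On either strand, GGCGCC was found in 7.01%, GGCACC in 7.91% and TTCTTGGAA in 0.183% of 32851 RefSeq promoter windows of 150 bases, and these motifs do not overlap each other. The matches describe the letters only.

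Hepcidin mRNA was abundant in both groups, and its ratio lay slightly above 1, as did that of 71.2% of all genes. Hamp, which encodes hepcidin, had 52696.9 counts in the control group and 62146.4 with erythrodiol, a ratio of 1.16 (1.15 to 1.18). Hamp2, a neighbouring copy whose product has not been shown to act on iron, had 5281.13 and 5988.59 counts, a ratio of 1.12 (1.08 to 1.16). Neither count is whole, because reads shared by both genes were divided between them, but their sums were whole, 57978 and 68135, with a ratio of 1.16 (1.15 to 1.17). Hamp2 took 9.11% and 8.79% of these sums, respectively. The spliced transcripts of Hamp and Hamp2 shared 390 bases in order, 92.9% of the longer, with runs of up to 87 identical bases, so the division between them is uncertain while their sum is not affected. In RPKM, the counts divided by gene length in kilobases and scaled to the column total, Hamp stood at 1046 in the control group and 1216 with erythrodiol, 10.7 and 11.1 times the level of Hamp2.

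Bmp6, the endothelial ligand that reports liver iron to hepatocytes, had 456 counts in the control group and 517 with erythrodiol. Its ratio of 1.12 had an interval of 0.983 to 1.27, which included 1. This interval covers counting error only, so it cannot tell whether the groups differed. Tfr2, the receptor of hepatocytes that senses transferrin iron upstream of hepcidin, had 42655 and 48055 counts, a ratio of 1.11 (1.10 to 1.12). Thus the ligand, the sensor and the hormone had ratios between 1.11 and 1.16.

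Tfrc, which encodes the transferrin receptor that carries iron into most cells, was the lone gene of the 10 with fewer counts in the erythrodiol group. It had 2130 counts in the control group and 1863 with erythrodiol, a ratio of 0.862 (0.810 to 0.918). Trf, which encodes transferrin, the iron carrier of plasma, had 1505734 and 1732206 counts, a ratio of 1.13 (1.13 to 1.14). Slc11a2, the divalent metal transporter that moves iron out of endosomes, had 4582 and 5353 counts, a ratio of 1.15 (1.11 to 1.198). The receptor and its ligand thus lay on opposite sides of 1. In these bulk samples, fewer cells of a type and less RNA per cell cannot be told apart.

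Both ferritin chains had ratios above 1. Relative to the median of all genes on the log2 scale, Ftl1 was 0.14 above and Fth1 only 0.013 above. Ftl1, the light chain that supports the mineral core, had 305100.14 counts in the control group and 380898.75 with erythrodiol, a ratio of 1.23 (1.22 to 1.24), the largest of the 10. A listed light chain copy, LOC100862446, had 132.86 and 121.25 counts, and the sums of both were whole, 305233 and 381020. Fth1, the heavy chain that oxidises iron for storage, had 159473 and 182625 counts, a ratio of 1.13 (1.12 to 1.14). Fthl17a, a heavy chain copy, had 1 count and 0 counts. Slc40a1, which encodes ferroportin, had 22980 and 26240 counts, a ratio of 1.13 (1.11 to 1.15).

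**Figure D1:**
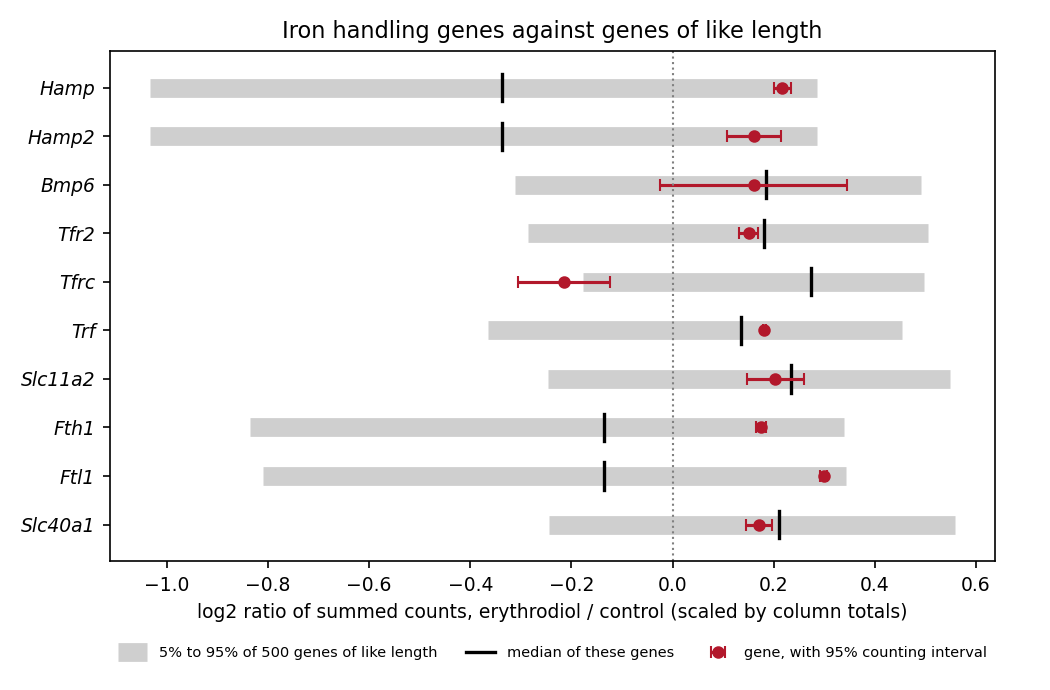
Log2 ratio of summed counts, erythrodiol over control, for the 10 iron handling genes (red points, bars are 95% counting intervals, 1 pooled value per group), with the median (black line) and the 5% to 95% range (grey bar) of the 500 genes nearest in length. The ratio of 9 genes lies above 0 and that of Tfrc below 0 and below its grey bar. Hamp, Hamp2, Fth1 and Ftl1 lie inside the upper part of theirs. The bars of Hamp and Hamp2 rest on genes of 333 to 827 bases, most of them longer than these 2.

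None of the 10 genes passed 1.5-fold in either direction, where 5.69% of the 13291 genes with at least 100 counts did (2.55% higher and 3.14% lower with erythrodiol). The counting interval lay above 1 for 8 of the 10 genes, against 54.6% of all genes, and below 1 for 1 gene, against 17.4%. Such an interval narrows as counts grow, and no share over genes of like count was computed. The median log2 ratio of the 10 was 0.17 beside 0.16 for all genes, and 8 of the 10 lay within 0.1 of the latter, as did 29.9% of all genes. Relative to the median of all genes, 6 of the 9 genes with a ratio above 1 stayed above 0, while Hamp2 (-0.0016), Bmp6 (-0.0018) and Tfr2 (-0.011) were just below it. Tfrc was 0.38 below the median of all genes on the log2 scale, and 13.6% of all genes had a lower ratio. Ftl1 was 0.14 above, and 72.0% of all genes had a lower ratio. The 10 genes held 1.71% of all counts in the control group and 1.96% with erythrodiol.

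The ratio of a gene varied with its length over the whole table. The median log2 ratio was -0.61 over 81 genes of up to 500 bases and 0.33 over 1416 genes longer than 6000 bases. The 10 genes span this range, from 410 bases for Hamp to 4920 for Tfrc, so each was set beside the 500 genes nearest in length. The part of gene length in the ratios was not tested beyond this comparison.

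Relative to genes of like length, the order of the 10 genes was different. Hamp was 0.55 and Hamp2 0.50 above the median of their neighbours on the log2 scale, and 92.4% and 89.2% of those neighbours had a lower ratio. Few genes are so short, and these neighbours measured 333 to 827 bases, most of them longer than the hepcidin genes. The 81 genes of up to 500 bases had a median of -0.61 and a 95th percentile of 0.15. Hamp (0.22) and Hamp2 (0.16) lay above that percentile, so their place among neighbours depends on the window. Ftl1 was 0.43 and Fth1 0.31 above their neighbours, of which 93% and 86.4% were lower. Tfrc was 0.49 below its neighbours, and 3.8% of them had a lower ratio. Slc11a2, Tfr2, Slc40a1 and Bmp6 were 0.02 to 0.04 below and Trf 0.05 above, and these 5 of the 10 lay within 0.1 of genes of their length, as did 33.8% of all genes. In all, 4 of the 10 genes were more than 0.3 above like-length genes, where 7.04% of all genes were, and 1 was more than 0.3 below, where 15.1% were. None of the 10 passed 1.5-fold relative to these 500 genes, where 1.02% of all genes were higher and 3.52% lower. This call depended on the number of neighbours, since Hamp (0.67) and Hamp2 (0.62) were higher past 1.5-fold relative to the 200 genes nearest in length, where 1.06% of all genes were. Hamp alone (0.61) was higher past it relative to the 200 nearest in both length and count, where 1.29% of all genes were. Over these alternatives and 2000 neighbours, the excess ranged from 0.33 to 0.67 for Hamp, 0.27 to 0.62 for Hamp2, 0.33 to 0.39 for Ftl1 and 0.25 to 0.31 for Fth1, and the deficit of Tfrc stayed between -0.49 and -0.47.

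**Figure D2:**
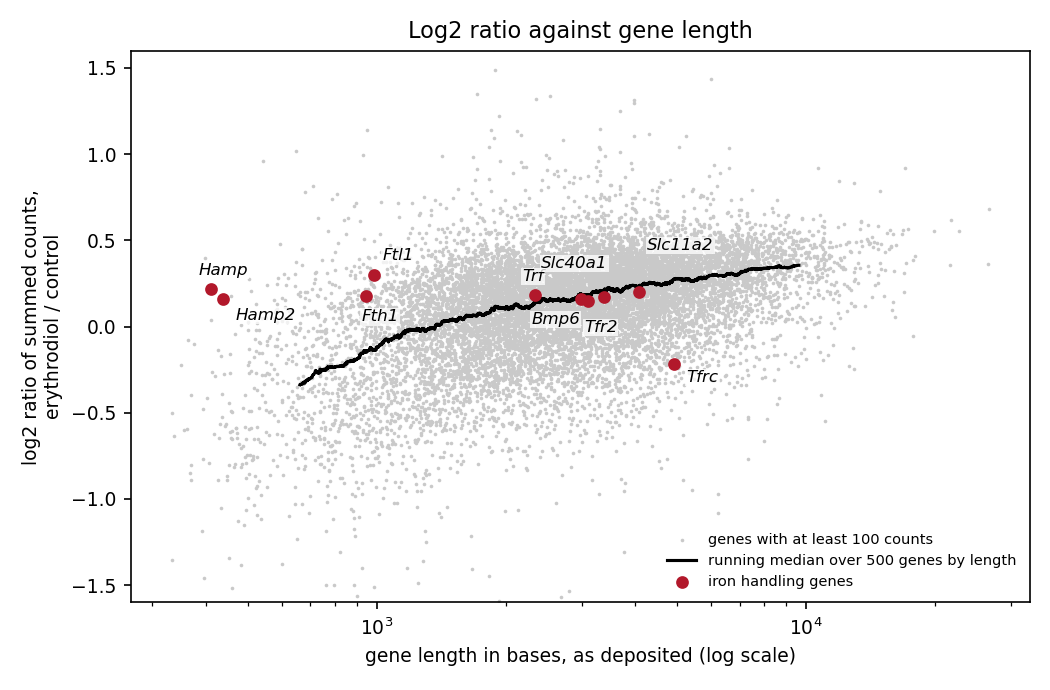
Log2 ratio of summed counts, erythrodiol over control, against the deposited gene length in bases (log scale) for genes with at least 100 counts (grey, 18 genes beyond 1.6 on the log2 scale not drawn), with the running median over 500 genes (black) and the 10 iron handling genes (red). The median climbs with length, the short hepcidin and ferritin genes lie above it, 5 genes lie close to it and Tfrc lies below it.

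The levels per length spanned more than 3 orders of magnitude and kept the same order in both groups. In RPKM, the control levels were 5254 for Trf, 2518 for Ftl1, 1378 for Fth1 and 1046 for Hamp. The next were 112 for Tfr2, 97.9 for Hamp2 and 55.4 for Slc40a1. The lowest were 9.14 for Slc11a2, 3.52 for Tfrc and 1.24 for Bmp6. Counting intervals of neighbours in this order did not overlap in either group, though the spread between libraries is unknown. The secreted carrier, the storage chains and the hormone were thus the most abundant, and in the control group Trf, Ftl1, Fth1 and Hamp exceeded 99.9%, 99.8%, 99.6% and 99.503% of all genes with at least 100 counts. Tfr2 stood 31.7 times above Tfrc in the control group and 40.9 times with erythrodiol. The light chain was 1.83 and 1.99 times the heavy chain, respectively.

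**Figure D3:**
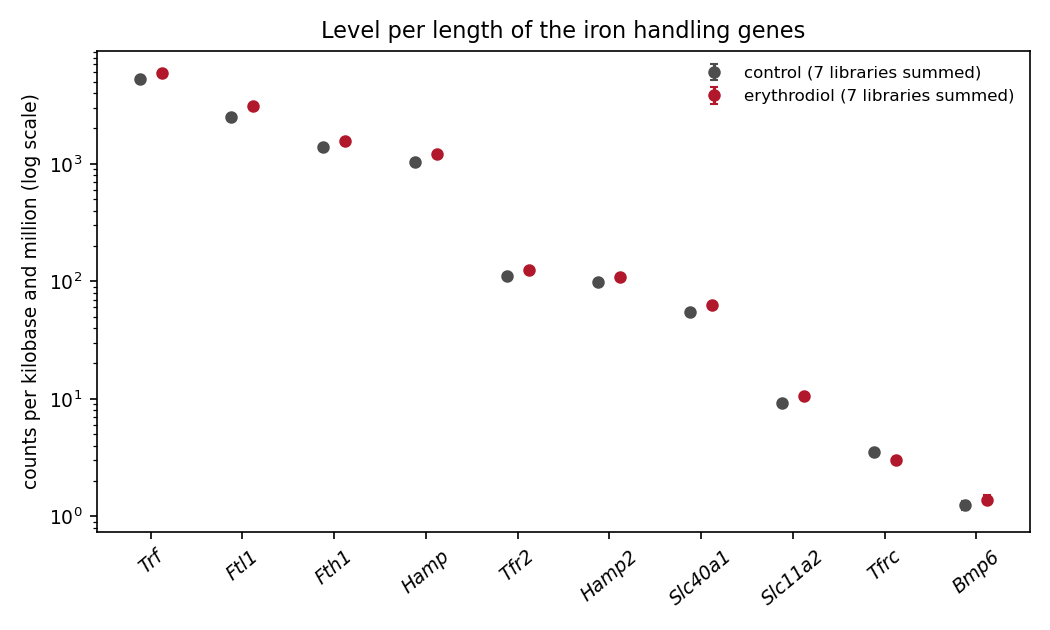
Level per length (RPKM, log scale) of the 10 iron handling genes in the control group (grey) and the erythrodiol group (red), each point a sum over 7 libraries, with 95% counting intervals that are mostly smaller than the points. Trf is highest and Bmp6 lowest in both groups, and the order of the genes is the same.

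The other genes that control hepcidin were set beside Hamp. Of 17 genes of BMP and SMAD control with at least 100 counts, 1 was higher and 1 lower past 1.5-fold, with a median log2 ratio of 0.20. Smad9, a receptor-activated SMAD, had 1407.01 and 2463.00 counts, a log2 ratio of 0.79. Fgl1, a secreted liver protein that binds BMP6, had 55990 and 27899 counts, a log2 ratio of -1.03. Erfe, the hormone of red cell precursors that lowers hepcidin, had 2.16 and 2.00 counts. Of 6 BMP and SMAD target genes none passed 1.5-fold, with a median of 0.06 and values from -0.38 for Id1 to 0.33 for Atoh8. Of 7 genes of IL-6 and STAT3 control none did, with a median of 0.21 and values from -0.33 for Socs3, a feedback inhibitor of this pathway, to 0.53 for Il6ra, the receptor chain. Hamp itself is a target of both pathways. Its log2 ratio of 0.22 lay within the range of either list, above Id1 and Socs3 and below Atoh8 and Il6ra. The IL-6 and STAT3 list holds mostly receptors and signal carriers, so its range is not that of the targets of this pathway.

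Genes of the acute phase list, several of which share the IL-6 and STAT3 input with Hamp, were lower with erythrodiol in part. The median log2 ratio of 15 genes was -0.45. Of these, 7 were lower and none higher past 1.5-fold, where 3.14% and 2.55% of all genes were, respectively. The 7 were the serum amyloid genes Saa1 (-1.23), Saa2 (-1.10) and Saa3 (-0.89), Apcs (-1.09), Orm2 (-0.84), Orm1 (-0.70) and Hpx, which encodes the heme carrier hemopexin (-0.67). Hpx had 946243 and 601396 counts. Of the 15, Saa4 (0.09), Fga (0.16) and Cp (0.02) had a log2 ratio above 0. Several genes of the list are short. Relative to genes of like length, 5 of the 15 were lower past 1.5-fold, where 3.52% of all genes were. Hamp, the shortest gene of them all, had a log2 ratio of 0.22, above the highest of the 15 (Fga, 0.16).

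Most genes of cellular iron control stayed within 1.5-fold, and the list medians lay on both sides of that of all genes. Of 8 genes of iron regulatory proteins and ferritin turnover none passed 1.5-fold, with a median log2 ratio of 0.17 and values from -0.16 for Fbxl5, which marks an iron regulatory protein for breakdown, to 0.38 for Epas1. Of 10 mRNAs known for iron-responsive elements, 5 of which are among the 10 iron handling genes, none did, with a median of 0.19, and Tfrc was the lowest at -0.21 and Cdc42bpa the highest at 0.44. The hairpin search matched 8 of these 10. Of 10 genes of iron uptake and reduction (median 0.33), Cybrd1, a ferric reductase, was higher (91.35 and 147.41 counts, log2 ratio 0.67), and Scara5, a ferritin receptor, was the lowest at -0.51. Of 10 genes of iron oxidation, heme export and recycling (median -0.06) none passed, from -0.39 for Blvra to 0.15 for Slc48a1. Of 15 genes of mitochondrial iron (median 0.02) none passed, from -0.45 for Iscu to 0.48 for Slc25a37, the iron carrier mitoferrin. Of 9 genes of heme synthesis (median 0.20), Alas1, the rate-limiting enzyme in liver, was higher (26953 and 44015 counts, log2 ratio 0.69), and Urod was the lowest at -0.22.

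Over these 10 lists, 98 genes that are not among the 10 iron handling genes had at least 100 counts. Of these, 3 were higher and 8 lower past 1.5-fold, where 2.55% and 3.14% of all genes were, respectively. The 8 lower were 7 acute phase genes and Fgl1, and the other iron lists held none. Relative to the median of all genes, the split of the 98 was 1 higher (Smad9) and 12 lower. No share of all genes was computed for this setting, so these counts have no reference. Relative to genes of like length, the split was none higher and 7 lower, beside 1.02% and 3.52% of all genes. Of these 7, 5 were acute phase genes and the others were Fgl1 and Scara5.

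**Figure D4:**
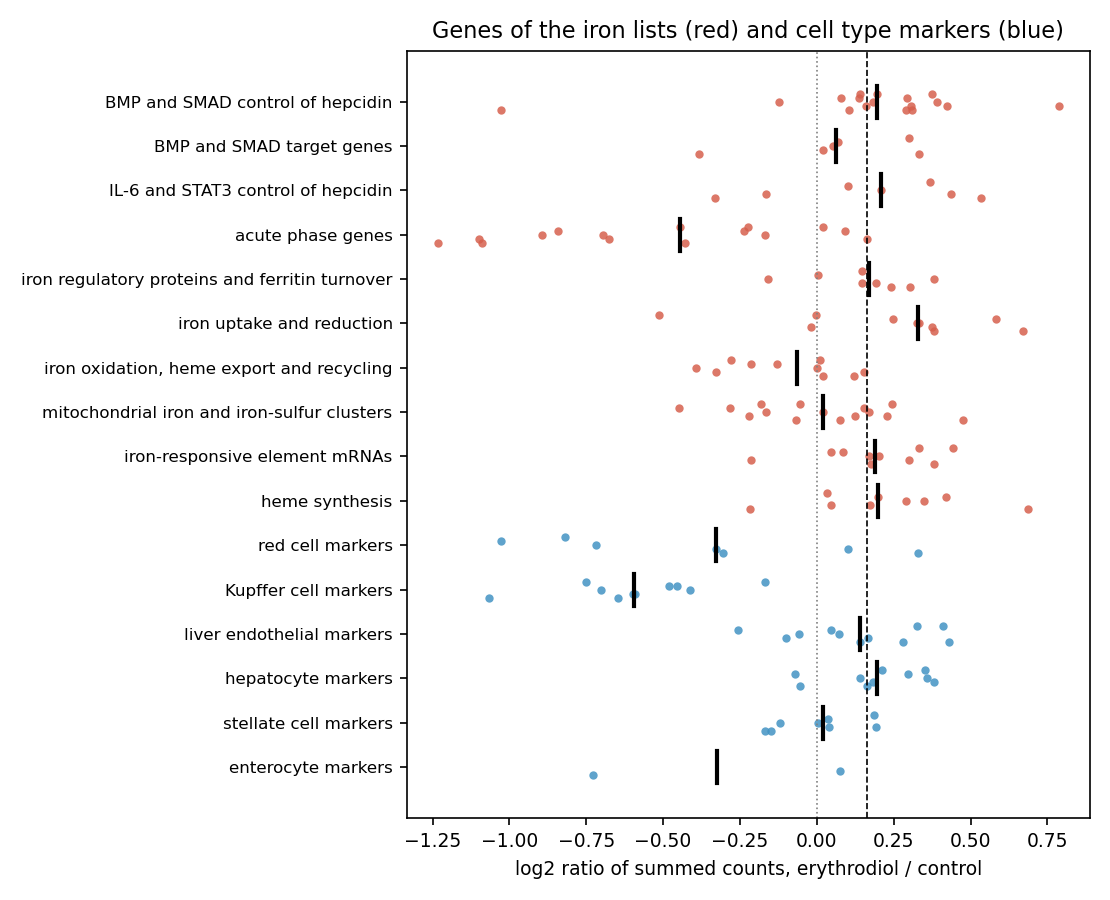
Log2 ratio of summed counts, erythrodiol over control, of each gene with at least 100 counts in the 10 iron lists (red) and 6 cell type marker lists (blue). Black bars are list medians, the dashed line is the median of all genes (0.16) and the dotted line is 0, and the acute phase, red cell and Kupffer cell lists lie lowest while most iron lists lie around the dashed line.

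Markers of other cells of the liver were measured because Tfrc, Slc40a1 and Bmp6 are also made outside hepatocytes. All 10 Kupffer cell markers had a log2 ratio below 0, and 6 were lower past 1.5-fold, where 3.14% of all genes were. Their summed counts were 166966 in the control group and 112148 with erythrodiol. The log2 ratios ran from -1.07 for Marco to -0.17 for Csf1r, with Adgre1, Cd5l, Clec4f, C1qa, Vsig4, C1qc, Timd4 and C1qb between them. Relative to like length, 5 of the 10 were lower past 1.5-fold, where 3.52% of all genes were. Kupffer cells, the macrophages that recycle red cell iron, are rich in ferroportin, and the ratio of Slc40a1 was 1.13. Of 7 red cell markers with at least 100 counts, 3 were lower past 1.5-fold, Hbb-bt (-1.03), Slc4a1 (-0.82) and Hbb-bs (-0.72), while Hba-a1 (-0.31), Hba-a2 (-0.33), Klf1 (0.10) and Epor (0.33) were not. Relative to like length, 2 of the 7 were lower past 1.5-fold and the median of the list was -0.0041. The summed red cell counts were 139223.99 and 98927, while Gata1, a defining factor of red cell precursors, had 3 counts and 1 count. Tfrc, which is abundant in red cell precursors, was lower in the same group, and the part of red cells or Kupffer cells in its ratio was not tested.

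Of 11 liver endothelial markers (Stab1, Stab2, Lyve1, Clec4g, Kdr, Pecam1, Fcgr2b, Oit3, Cdh5, Ehd3 and Dnase1l3), the cells that make BMP6, none passed 1.5-fold and the median log2 ratio was 0.14. The 10 hepatocyte markers had a median of 0.20, with none past 1.5-fold. The 8 stellate cell markers (Lrat, Reln, Colec11, Des, Pdgfrb, Dcn, Col1a1 and Col3a1) had a median of 0.02, with none past 1.5-fold. Of 6 enterocyte markers, which were checked because Slc11a2 and Slc40a1 serve iron uptake in the gut, Fabp2 was lower (-0.73) and Apoa4 was at 0.08, and both were well represented here, with 12791 and 65968 control counts. Vil1 had 43 and 31 counts, and Lct, Sis and Cdx2 had no more than 2 counts in either group.

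The assembly that the authors made over the libraries held 13439 new coding transcripts, and 5019 reference genes had at least 1. Of the 10 iron handling genes, Slc11a2 had 7, Slc40a1 1 and Tfrc 1, and the other 7 genes had none. The assembly was not given per group, so these forms say nothing about erythrodiol. Slc11a2 is known to make mRNAs with different starts and with either of 2 ends, of which one carries the iron-responsive element. All 7 new Slc11a2 transcripts had 17 exons and ended in the exon at chr15:100387898-100389161 like a reference form without the element, so that none held the hairpin of the other reference form. Of these, 3 opened with an exon at chr15:100422476-100422860 and 1 with an exon at chr15:100415627-100415916, each joined to the second exon by a new junction. Of all 7, 6 had a new junction over an intron of 1676 bases (chr15:100403900-100405575).

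The new Slc40a1 transcript had 10 exons and opened at chr1:45927914-45927966, upstream of the start of the reference transcript. No exon of it covered the hairpin shown above for Slc40a1, so that this form lacked the element. A ferroportin mRNA with an upstream start and without the element is known from gut and red cell precursors. The new Tfrc transcript started within the gene, at 32624548 of chromosome 16, and had 5 exons with no new junction. It kept the 4 matches that the hairpin search found in the 3′ UTR. None of the 16 splicing events that the authors listed was in any of the 10 genes.

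**Figure D5:**
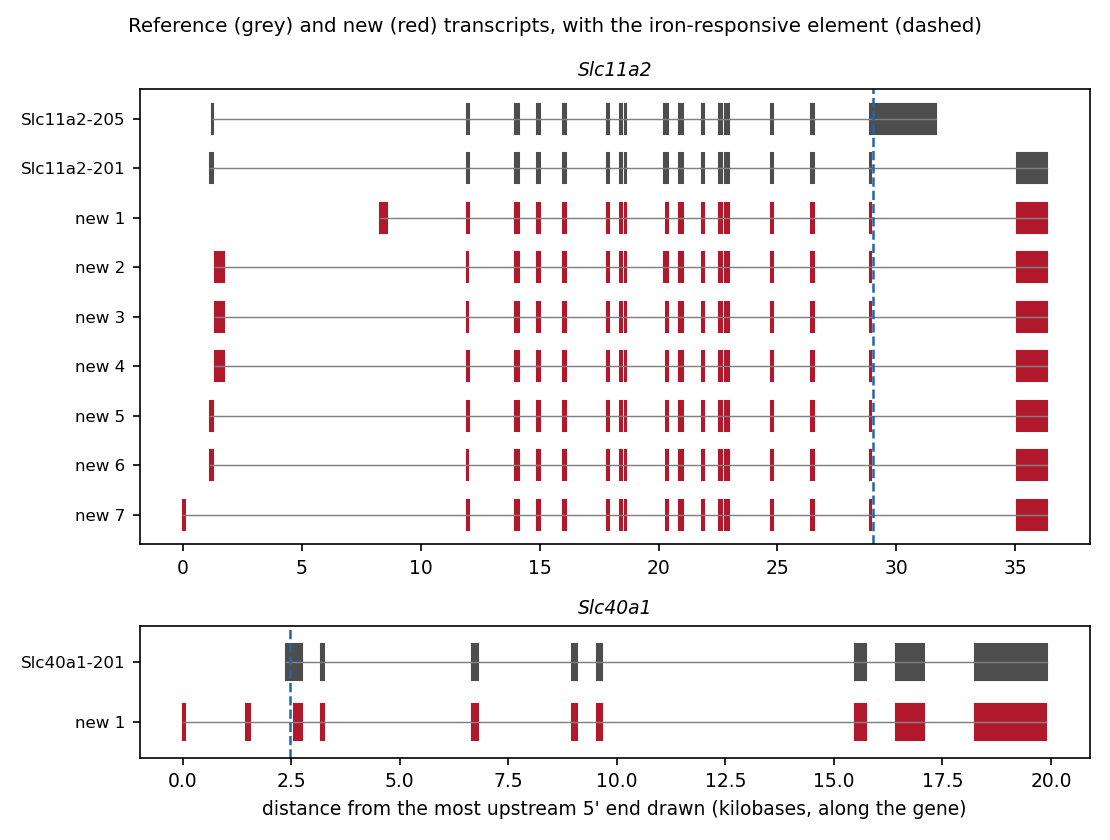
Exons (boxes) of reference transcripts (grey) and of transcripts assembled by the authors (red) of Slc11a2 and Slc40a1, by distance in kilobases from the most upstream start drawn, with the iron-responsive element as a dashed line. The last exon of the uppermost Slc11a2 transcript and an exon of the reference Slc40a1 transcript reach over the element, while those of the 7 new Slc11a2 transcripts and the new Slc40a1 transcript do not.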

How the data were processed

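PolyA RNA of 14 pooled liver samples was sequenced by the authors on the BGISEQ-500 in paired-end mode. Per the labels and the study's methods, HISAT, StringTie, Cufflinks, GATK, Bowtie2 and RSEM were used, with versions not given in the sources used here. The authors deposited an expected count per gene and group, summed over 7 libraries and not normalized, since each sum lies near the read pairs mapped to genes (122887639 and 124690110). They also deposited counts of clean reads and mapping rates in percent per library, and exon positions of new transcripts. The deposited log2 ratio, p-value and q-value of the authors' comparison were not used.

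Ratios were taken between counts divided by column totals, with exact conditional (Clopper-Pearson) 95% intervals, and levels as RPKM from the deposited lengths with exact Poisson intervals. The background held the genes whose counts over both groups reached 100, and called means past 1.5-fold. Of all genes, 17.3% had a control count that was not whole (tolerance 1e-06), as had 3 of the 10 members. The members and lists were chosen with earlier results of these data known. Named are the 10 genes and their listed copies, Apoe, in each list the genes past 1.5-fold or else the highest and the lowest, and the markers of lists of at most 12 genes. Other genes were chosen after their values were seen. Sequences came from GENCODE M21 and RefSeq (GRCm38), where 7 of the 10 genes had a listed promoter. Ratios and intervals were tested on simulated counts that held counting error only. The limit set there on the remaining length trend left out the shortest and longest genes, and Hamp and Hamp2 are among the shortest. Alternatives were other scalings, minimums, fold limits, numbers of neighbours and sums over copies. Computation was in Python 3.11.15 with scipy 1.17.1, pandas 2.3.3 and numpy 2.4.6, and figures were drawn with matplotlib 3.10.9.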

Additional observations from a re-analysis of the deposited data

Results flagged for a closer look

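Control replicate 3 stood apart from the other 6 libraries of its group in its genome mapping rate, 76.66% of clean reads beside a group median of 94.41%. Its share mapped to genes, 64.33% beside a median of 75.3%, was also far from the others. By chance the rule used here marks about 1 in 20 groups. The library is part of every control sum, and its part in the ratios of the iron handling genes was not tested.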

How the results depend on the processing

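The number of iron handling genes past the fold limit was 0 in both directions at limits of 1.5 and 2, under each minimum and under each scaling of the sums. It was 1 higher gene, Ftl1, at a limit of 1.2, 2 (Hamp and Hamp2) relative to 200 genes nearest in length and 1 (Hamp) relative to 200 nearest in length and count, the neighbour counts being added after seeing the data. Their median log2 ratio of 0.17 was 0.0106 relative to the median of all genes, 0.0106 relative to like length, 0.00894 with upper-quartile scaling and 0.0884 without the 20 genes of most counts. The median difference from like length (0.0106) was 0.0729 with 200 genes nearest in length and count. For the other list genes (3 higher, 8 lower), a limit of 1.2 gave 28 and 18 of 98 (33.7% and 11.4% of all genes) and a limit of 2 gave 0 and 4 (0.218% and 0.549%). Past 1.5-fold, 1 was higher relative to the median of all genes, where no share of all genes was computed. Relative to like length 0 were higher, beside 1.02% of all genes. Of 93 values of single genes under alternatives, 66 moved by more than the counting interval allows, by scaling or centring in the main, and the cause was not tested otherwise. Only 1 summed value per group was given, so depth limits Bmp6 most, no library could be left out, and the spread between mice is unknown. No paired analysis was possible because gene counts were pooled over the libraries of a group.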
